A study of Mus musculus with 8 samples.

Results

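Tubulins are the building blocks of microtubules, and the alpha and beta tubulin genes described here were measured by RNAseq in whole testes of 12-day-old (P12) mice. The rule took 10 genes by symbol from tables that list 40840 genes: the alpha tubulins *Tuba3a*, *Tuba3b*, *Tuba1a*, *Tuba1b* and *Tuba1c*, and the beta tubulins *Tubb5*, *Tubb4b*, *Tubb2a*, *Tubb3* and *Tubb6*. All 10 passed the filter on low counts, as did 19104 genes in all. They were chosen by name with their fold changes and test results between the 2 genotypes already known, so fold changes and calls between genotypes describe these genes and are no independent support for a difference.

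There were 4 wild type and 4 *Tra2b-cPEko* mice, kept on a C57BL/6J background and, per the methods, biologically independent. The mice called wild type carried 1 floxed and 1 unmodified copy of *Tra2b* (*Tra2bPE* fl/+) and no Cre, and the floxed copy has LoxP sites around the poison exon, a segment whose inclusion brings an early stop codon into the mRNA. The *Tra2b-cPEko* mice carried 1 floxed copy, 1 copy with the poison exon deleted and the *Vasa-Cre* transgene, which is active in germ cells. Somatic cells of these testes therefore kept a single copy with the poison exon, and the control somatic cells kept both. The labels give the cell type as mixed and name no batch or litter, and the methods warn that the exact age could bring some variation in cell types. *Tra2b* itself was read at 164 ± 8.93 counts per 1000000 reads on genes (CPM, with the SD over 4 mice) for wild type and 198 ± 8.49 CPM in the *Tra2b-cPEko* testes without overlap (log2 fold change 0.27, SE 0.05, edgeR adjusted p = 0.0552, DESeq2 adjusted p = 0.000195). Counts over the whole gene do not show the poison exon. Its paralog *Tra2a* was read at 129 ± 15.3 and 69.5 ± 3.36 CPM (-0.89, SE 0.08, edgeR adjusted p = 0.00231). DESeq2 is the tool of the paper's own comparison of these genotypes, and edgeR was the main test here.

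A microtubule is a hollow tube of alpha and beta tubulin joined in pairs. Testis germ cells use microtubules in the mitotic and meiotic spindles and, later, in the spermatid manchette and the sperm tail, and *Tuba3a* and *Tuba3b* are known as the testis alpha tubulins. Cells hold their tubulin supply by autoregulation: when free tubulin is plentiful, the factor TTC5 recognises the first residues of a tubulin chain as it leaves the ribosome, and the mRNA is destroyed. Most alpha tubulins also end in a tyrosine that one set of enzymes removes and another puts back.

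The coding starts are shown because they are the bases behind the residues that TTC5 reads, with the codons after the start codon in capitals. They come from the GENCODE vM39 transcripts of GRCm39.
Tuba3a: atgCGTGAGTGT
Tuba3b: atgCGTGAGTGT
Tuba1a, Tuba1b and Tuba1c: atgCGTGAGTGC
Tubb5: atgAGGGAAATC
Tubb4b and Tubb3: atgAGGGAGATC
Tubb2a: atgCGCGAGATC

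The alpha tubulins share the first codons in capitals, and the beta tubulins shown share their last codon, which differs from that of the alpha tubulins. The ends of the *Tuba3* coding sequences and of *Tuba1c* follow, because they show how alike the *Tuba3* genes are and where the terminal tyrosine codon (capitals) lies before the stop codon.
Tuba3a: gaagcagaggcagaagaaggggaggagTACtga
Tuba3b: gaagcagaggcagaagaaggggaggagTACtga
Tuba1c: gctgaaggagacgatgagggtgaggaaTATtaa

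*Tuba3a* and *Tuba3b* end in the same bases, and their proteins of 450 residues were identical. Their coding sequences of 1353 bases differed at 41 positions, all of them silent, and the longest stretch without a difference was 155 bases. The 60 coding bases with the most differences, 9 in all, are positions 313 to 372 counted from the start codon, with the differing bases in capitals.
Tuba3a: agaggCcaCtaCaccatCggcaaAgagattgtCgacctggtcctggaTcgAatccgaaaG
Tuba3b: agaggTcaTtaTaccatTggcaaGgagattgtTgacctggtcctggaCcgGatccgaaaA

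Differences such as these are what allows a read to be given to one gene of the pair. The 3′ untranslated regions, of 89 and 92 bases, were 84.0% identical. *Tuba3a* lies at chr6:125255232-125263033 on the minus strand of GRCm39 and *Tuba3b* at chr6:145561483-145567205 on the plus strand, each with 5 exons. On the other strand, *Tuba3a* overlaps the gene *4930417O13Rik*, and *Tuba3b* overlaps no annotated gene.

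The other members are spread over the genome. *Tuba1b* (chr15:98827738-98832493), *Tuba1a* (chr15:98847714-98851589) and *Tuba1c* (chr15:98927748-98936266) lie close together, while the beta tubulins lie apart: *Tubb5* at chr17:36144809-36149198, *Tubb4b* at chr2:25112170-25114714, *Tubb2a* at chr13:34257549-34261998, *Tubb3* at chr8:124138163-124150092 and *Tubb6* at chr18:67523585-67536773. The protein of *Tuba3a* was 97.6% identical to that of *Tuba1a* and 96.4% to that of *Tuba1c*. *Tuba1a* and *Tuba1b* were 99.6% identical, the beta tubulins were 90.2% to 97.5% identical to each other, and *Tuba3a* was 40.3% identical to *Tubb5*. Several of these members also overlap other annotated genes. On the same strand, *Tuba1a* and *Tuba1b* overlap *Gm49450*. On the other strand, both overlap *Gm41396*, and *Tuba1a* also *B430209F14Rik*. *Tubb5* overlaps *Flot1* there, *Tubb4b* overlaps *Cimip2a* and *Tubb2a* overlaps *Bphl*. How many reads these overlaps took from the members was not measured.

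Tubulin genes share sequence, which bears on how many reads each gene can be given. The tables hold reads that aligned to 1 place, and between 14.6% and 15.6% of all reads in each library were set aside as not aligned uniquely. Each transcript was therefore cut into every window of 100 bases, the read length in the methods, and the windows found without a mismatch in another gene were counted. *Tuba3a* shared 12.1% of its windows and *Tuba3b* 11.8%, and every shared window of *Tuba3a* was shared with *Tuba3b*. Sharing was far higher in the *Tuba1* genes: 65.7% of windows in *Tuba1a*, 39.5% in *Tuba1b* and 46.1% in *Tuba1c*, and within coding sequence 81.5%, 90.9% and 80.4%. Among beta tubulins, *Tubb4b* shared 29.9%, mostly with the pseudogene *Tubb4b-ps1*, *Tubb2a* shared 25.1%, mostly with *Tubb2b*, *Tubb3* shared 0.418%, and *Tubb5* and *Tubb6* shared 0. These are shares of the sequence and not of lost reads, since the second read of a pair can place the first.

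Levels of different genes can be compared only per length. Among the members, *Tubb4b*, a beta tubulin of cilia and flagella that most tissues express, had the highest level in wild type testes, 404 ± 26.8 CPM per kilobase of transcript (SD, n = 4). *Tubb5*, a beta tubulin of most tissues, followed at 296 ± 13.4, and *Tuba3a* came next at 247 ± 19.0, with a range over mice that overlapped that of *Tuba1a* (223 ± 21.2). *Tuba3b* stood at 158 ± 16.5, below all 4 of the genes above it. *Tubb3*, best known from neurons, at 77.7 ± 6.78, and *Tuba1b*, an alpha tubulin of most cells, at 74.9 ± 5.41 overlapped. *Tuba1c* had 41.3 ± 1.30, *Tubb6* 10.2 ± 0.575 and *Tubb2a* 5.59 ± 0.268 CPM per kilobase.

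The order depends on the shared sequence. Per kilobase of windows found in no other gene, a setting added after the data were seen, *Tuba1a* had the highest mean wild type level, 686 ± 65.2 CPM. It was followed by *Tubb4b* (615 ± 40.8), *Tubb5* (307 ± 13.9) and *Tuba3a* (300.4 ± 23.1). The ranges over mice overlapped between *Tuba1a* and *Tubb4b*, and between *Tubb5* and *Tuba3a*. All reads of a gene were divided by this shorter length, so any read that its mate placed in a shared window raises the level. *Tuba3b* was again the fifth, at 190.0 ± 19.9.

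**Figure D1:**
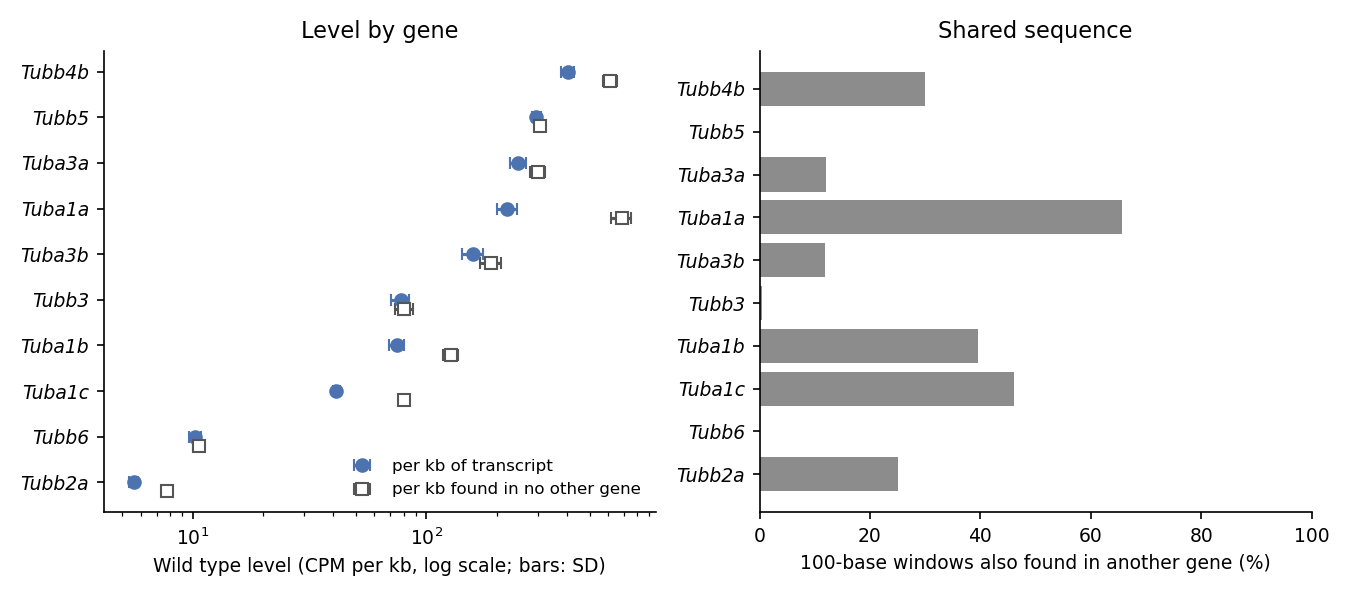
Left, wild type level of each member in CPM per kilobase on a log axis (mean and SD of 4 mice), per kilobase of transcript (filled) and per kilobase of windows found in no other gene (open); right, the percentage of each transcript's 100-base windows that are also in another gene. The filled and open points of *Tuba1a*, with 65.7% of its windows shared, lie far apart at 223 and 686, and those of *Tubb5*, which shared none, at 296 and 307.

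*Tuba3b* was the member that changed by the test over all genes. Its level was 281, 322, 254 and 267 CPM in wild type mice A to D, and 218, 212, 213 and 220.2 CPM in *Tra2b-cPEko* mice A to D. The groups did not overlap, and the spread over wild type mice (CV 10.5%) was wider than that over *Tra2b-cPEko* mice (1.68%). The means were 281 ± 29.3 and 216 ± 3.63 CPM (SD, n = 4 each), 23.1% lower in the *Tra2b-cPEko* testes, with a log2 fold change of -0.38 (SE 0.06, edgeR adjusted p = 0.0421 over 19104 genes, DESeq2 adjusted p = 2.42e-05). In a bulk sample, fewer cells of a type and less RNA per cell cannot be told apart.

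The edgeR call of *Tuba3b* was near its threshold. It was lost without wild type mouse A (adjusted p = 0.124), wild type mouse D (0.0505), or *Tra2b-cPEko* mouse A (0.131), B (0.0607), C (0.108) or D (0.151), and held without wild type mouse B or C. Over these 8 fits the log2 fold change stayed between -0.43 and -0.31.

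*Tuba3a*, which encodes the same protein, was read at 360.1, 424, 365 and 375 CPM in wild type mice A to D and at 339, 332, 325 and 348 CPM in *Tra2b-cPEko* mice A to D. Every *Tra2b-cPEko* mouse was below every wild type mouse, but the gap between the groups was small. The means of 381 ± 29.3 and 336 ± 9.74 CPM gave a log2 fold change of -0.18 (SE 0.05), which did not pass the edgeR test (adjusted p = 0.159) and passed DESeq2's (adjusted p = 0.0490). The overlapping gene was given 1 to 6 reads per library, beside 12194 to 22157 on *Tuba3a*. This does not show how many reads the overlap took from *Tuba3a*. In each library 0.468% to 0.635% of all reads were set aside as ambiguous, and whether the counting used the strand is not given.

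With the reads of both genes summed, which leaves out how reads were divided between them, the level was 662 ± 56.9 CPM in wild type and 552 ± 13.2 CPM in the *Tra2b-cPEko* testes. The wild type mice lay between 619 and 746 CPM and the *Tra2b-cPEko* mice between 538 and 568 CPM. The log2 fold change of -0.26 (SE 0.06) did not pass the edgeR test (adjusted p = 0.0886) and passed DESeq2's (adjusted p = 0.00247), and without wild type mouse C the edgeR adjusted p was 0.0499.

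Fewer of the reads of the pair fell on *Tuba3b* in the *Tra2b-cPEko* testes. *Tuba3b* took 43.8%, 43.1%, 41.0% and 41.6% of the reads of the pair in wild type mice A to D, and 39.1%, 39.0%, 39.6% and 38.8% in *Tra2b-cPEko* mice A to D. The lowest wild type mouse, C, had an exact 95% binomial interval of 40.5% to 41.6% over 29429 reads, and the highest *Tra2b-cPEko* mouse, C, one of 39.0% to 40.2% over 25179 reads, intervals that cover counting error only. The means were 42.4% ± 1.30 and 39.1% ± 0.363 (SD, n = 4 each), a difference of -3.26 percentage points, given as a description since both genes come from the contrast behind the list. It lay between -3.71 and -2.78 points with any 1 mouse left out.

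**Figure D2:**
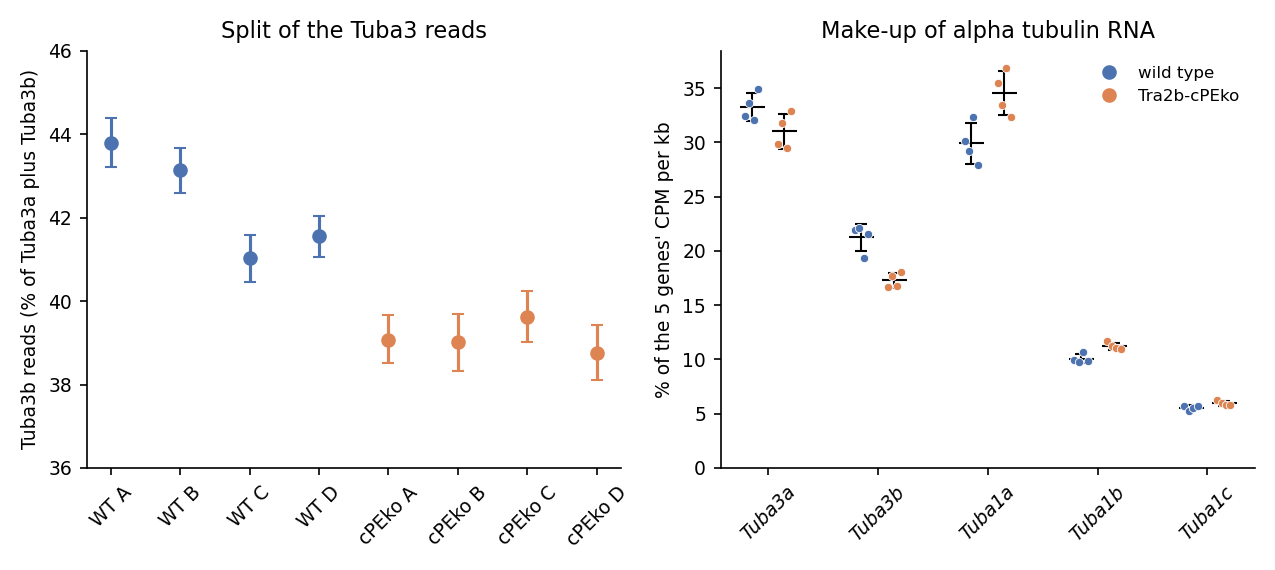
Left, percentage of the reads on *Tuba3a* and *Tuba3b* that fell on *Tuba3b* in each mouse, with exact 95% binomial intervals (the axis starts at 36%); right, the share of each alpha tubulin in the CPM per kilobase of the 5 alpha members, with 1 point per mouse and mean and SD. All 4 wild type mice lie above 41% in the left panel and all 4 *Tra2b-cPEko* mice below 40%, and on the right *Tuba3b* made up 21.2% of the alpha members in wild type and 17.3% in the *Tra2b-cPEko* testes.

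The other alpha tubulins did not pass the test. *Tuba1a*, the alpha tubulin of brain and many other tissues, was read at 392, 432, 433 and 353 CPM in wild type mice A to D and at 472, 409.7, 476 and 401 CPM in *Tra2b-cPEko* mice A to D. The groups overlapped (402 ± 38.3 against 440 ± 39.9 CPM, SD, n = 4 each; log2 fold change 0.13, SE 0.08, edgeR adjusted p = 0.458). *Tuba1b* had 252 ± 18.2 and 265 ± 16.7 CPM (0.08, adjusted p = 0.561), and *Tuba1c* 94.1 ± 2.96 and 95.7 ± 6.99 CPM (0.03, adjusted p = 0.862). Both overlapped between the genotypes, and the sign of *Tuba1c* turned to -0.03 without *Tra2b-cPEko* mouse A.

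As a share of the summed CPM per kilobase of the 5 alpha members, the *Tuba3* pair made up 54.3%, 55.7%, 51.4% and 56.4% in wild type mice A to D and 46.5%, 49.4%, 46.3% and 51.0% in *Tra2b-cPEko* mice A to D. The groups did not overlap, though wild type mouse C and *Tra2b-cPEko* mouse D were close (54.5% ± 2.23 against 48.3% ± 2.27, SD, n = 4 each). Per kilobase of unshared windows the pair made up 35.5% ± 2.12 and 29.9% ± 2.005, and the groups, 32.6% to 37.4% and 28.1% to 32.3%, again did not overlap. The summed alpha level was 744 ± 52.4 and 704 ± 26.7 CPM per kilobase.

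Of the beta tubulins none passed the test. *Tubb6*, a beta tubulin that many tissues express at a low level, was read at 28.7, 32.3, 28.7 and 29.7 CPM in wild type mice A to D and at 34.1, 33.9, 33.8 and 32.8 CPM in *Tra2b-cPEko* mice A to D. Here every *Tra2b-cPEko* mouse was above every wild type mouse, although wild type mouse B was close to *Tra2b-cPEko* mouse D (29.8 ± 1.68 against 33.7 ± 0.606 CPM; log2 fold change 0.17, SE 0.05, edgeR adjusted p = 0.174, DESeq2 adjusted p = 0.0789). It overlaps *Afg3l2* and *Gm58538* on the other strand, and whether the counting used the strand is not given in the sources used here.

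*Tubb5* had 784 ± 35.5 CPM in wild type and 788 ± 66.9 CPM in the *Tra2b-cPEko* testes (log2 fold change 0.01, SE 0.06, edgeR adjusted p = 0.970), and *Tubb4b* 647 ± 42.9 and 660.1 ± 40.0 CPM (0.03, adjusted p = 0.846). *Tubb3* had 249 ± 21.7 and 264 ± 22.9 CPM (0.09, adjusted p = 0.595), and *Tubb2a*, a beta tubulin abundant in nerve cells, 13.0 ± 0.622 and 13.9 ± 1.24 CPM (0.10, adjusted p = 0.577). The groups overlapped for all 4. *Tubb4b* made up 50.9% ± 0.884 of the beta members' CPM per kilobase in wild type and 51.0% ± 2.19 in the *Tra2b-cPEko* testes, and *Tubb5* 37.3% ± 1.17 and 36.7% ± 1.64.

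**Figure D3:**
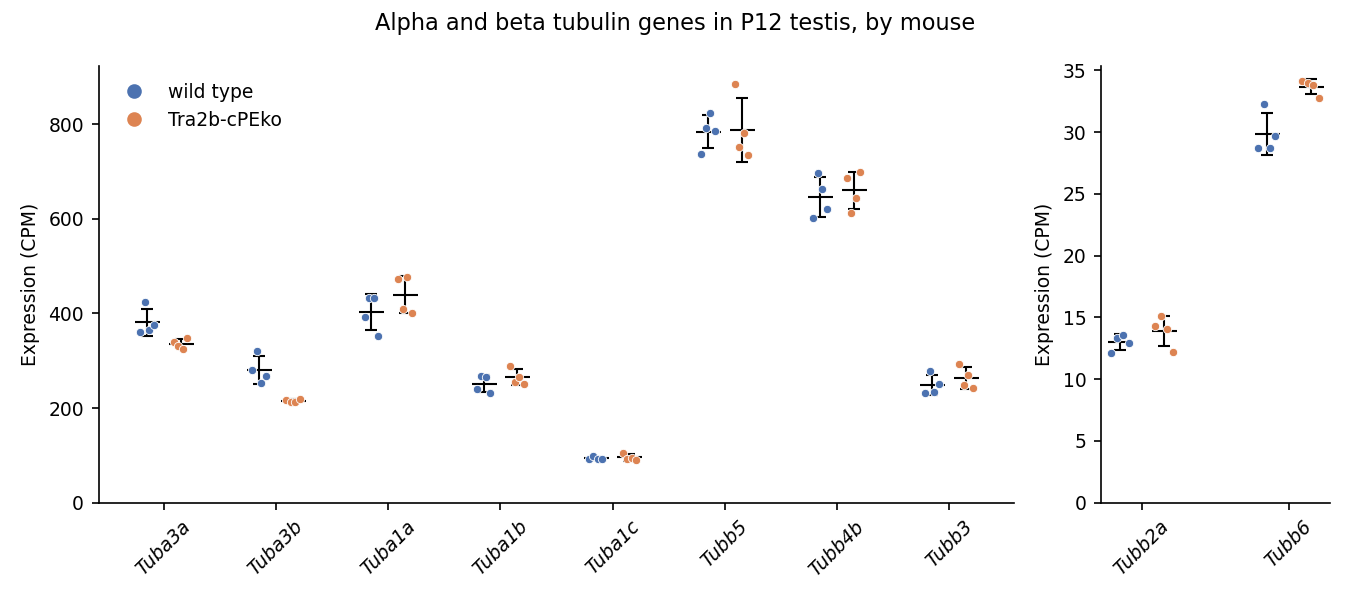
Expression of the 10 members in CPM, with 1 point per mouse and mean and SD of 4 mice per genotype; *Tubb2a* and *Tubb6* have their own axis. The *Tra2b-cPEko* points of *Tuba3b*, between 212 and 220.2 CPM, lie below the lowest wild type point at 254 CPM, while the genotypes overlap in 7 of the 10 genes.

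Counted together, 1 of 10 members was called by edgeR at an adjusted p under 0.05, and it was lower in the *Tra2b-cPEko* testes. Among all 19104 genes tested 0.157% were called and 0.0262% were called lower, which is given as the background and supports nothing here because the list came from this contrast. At an unadjusted p under 0.05 there were 3 members, *Tuba3a*, *Tuba3b* and *Tubb6*, against 15.3% of all genes. The genotypes did not overlap in the same 3 members, against 8.54% of all genes. DESeq2 called 2 members, both lower, against 2.79% of the 18149 genes to which it gave an adjusted p.

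The median log2 fold change of the members was 0.05, beside -0.00 over all genes tested, with 2 members below 0 and 8 above. The members took 0.299% to 0.338% of the reads on genes in wild type and 0.296% to 0.333% in the *Tra2b-cPEko* testes. Their summed level was 3133 ± 173 and 3113 ± 162 CPM (SD, n = 4 each).

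**Figure D4:**
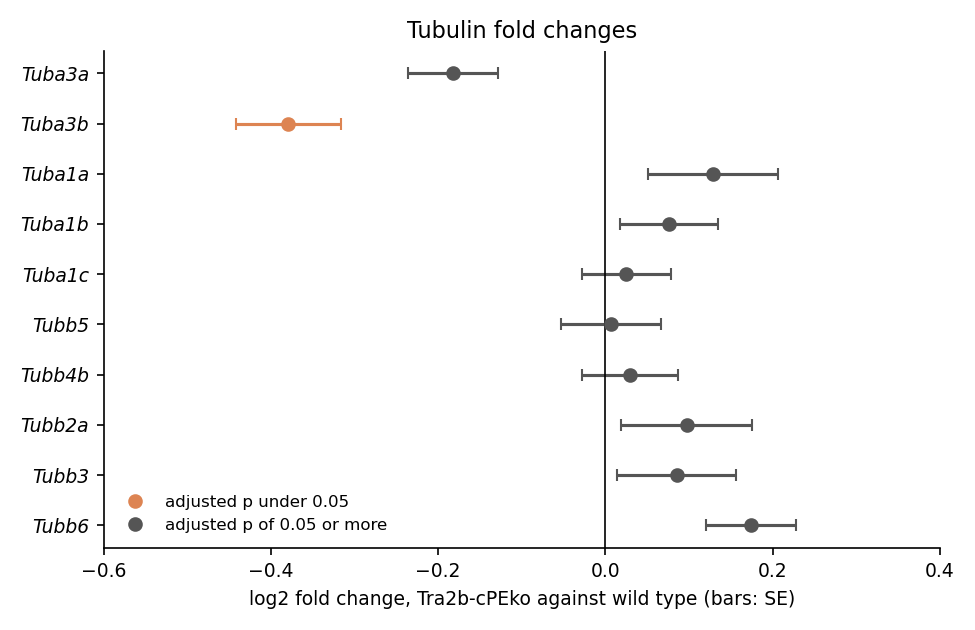
Log2 fold change of each member, *Tra2b-cPEko* against wild type, with its SE from edgeR; orange marks an adjusted p under 0.05. *Tuba3b* (-0.38) and *Tuba3a* (-0.18) lie left of 0, and the other 8 members lie between 0.01 and 0.17.

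Germ cell markers were set beside the *Tuba3* result, since the tissue holds many cell types and the Cre acts in germ cells. Summed over 9 markers, the pachytene list was at 193, 190.2, 109.5 and 122 CPM in wild type mice A to D and between 114 and 135 CPM in *Tra2b-cPEko* mice. Wild type mice A and B were thus high, and these were also the mice with the most *Tuba3b*. Wild type mice C and D fell in or below the *Tra2b-cPEko* range of that list, and their *Tuba3b* levels, 254 and 267 CPM, were above all 4 *Tra2b-cPEko* mice. *Tuba3a* did not follow the list in this way. Among wild type mice, its level was lowest in mouse A, at 360.1 CPM, and highest in mouse B, at 424 CPM.

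The leptotene and zygotene list (11 genes) lay between 1392 and 2007 CPM in wild type and between 1449 and 1582 CPM in the *Tra2b-cPEko* testes, with the same 2 wild type mice highest. The list of differentiating spermatogonia (7 genes) was at 600.1, 558, 597 and 590.4 CPM in wild type mice A to D and at 528, 558, 490 and 517 CPM in *Tra2b-cPEko* mice A to D, groups that overlapped at mouse B of each genotype. All 7 of its genes had a negative log2 fold change. Of the 7, 1 was called, beside 0.157% of all genes tested that were called and 0.0262% that were called lower. It was *Sohlh1*, a transcription factor of spermatogonia (-0.34, edgeR adjusted p = 0.0341), which is named after its value was seen. The list was chosen with earlier results of these data known, so this call is no independent support. Undifferentiated spermatogonia (10 genes) lay between 389 and 470.3 CPM in wild type and between 411 and 431 CPM in the *Tra2b-cPEko* testes. Of these 10 genes, 6 had a negative log2 fold change, beside 50.3% of all genes tested. So did 9 of the 11 leptotene and zygotene genes and 6 of the 7 pachytene genes that passed the filter. The part of these germ cell levels in the *Tuba3* result was not tested.

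**Figure D5:**
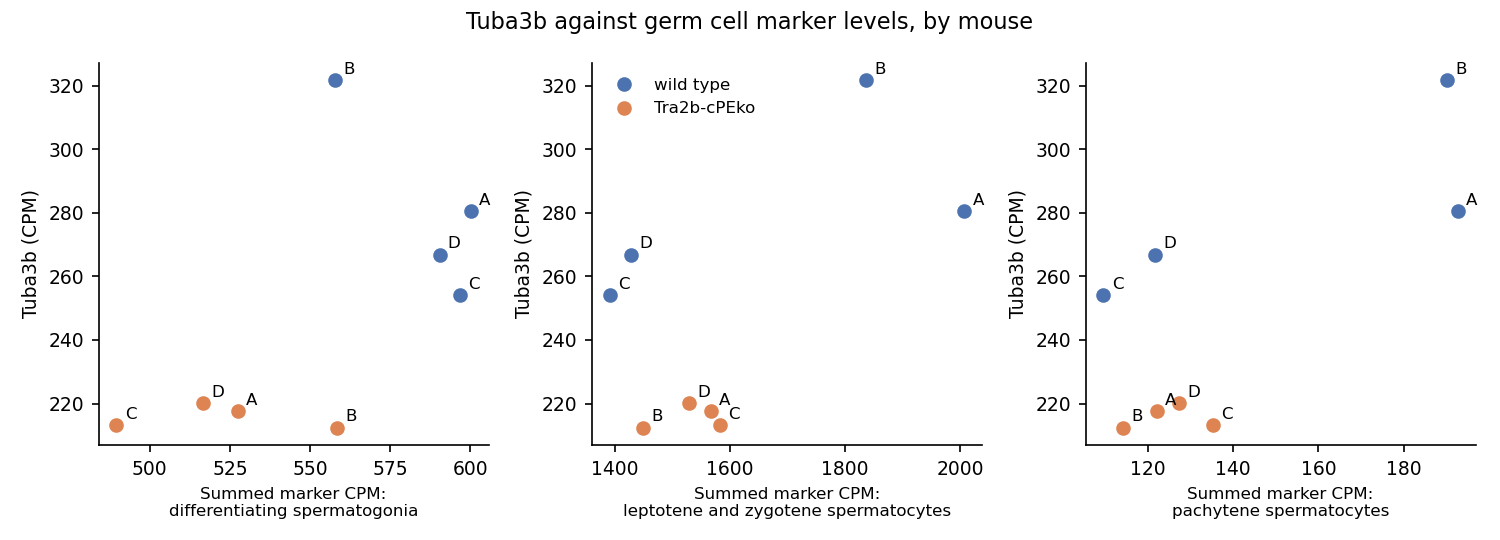
*Tuba3b* in CPM against the summed CPM of 3 lists of germ cell markers, 1 point per mouse with its letter; the axes do not start at 0. On the pachytene axis wild type mice C and D, at 109.5 and 122 CPM, lie among or to the left of the *Tra2b-cPEko* mice but above them in *Tuba3b*, and on the axis of differentiating spermatogonia the wild type mice lie to the right, with mouse B level with *Tra2b-cPEko* mouse B.

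Sertoli cell markers (12 genes) were at 6406 to 6873 CPM in wild type and 6434 to 7166 CPM in the *Tra2b-cPEko* testes, with none of them at 0. Macrophage markers (9 genes, none called) did not overlap, 139.6 to 173.6 CPM against 173.9 to 207 CPM. Leydig cell markers lay between 393 and 467 CPM and between 414 and 656 CPM, and peritubular and stromal markers between 4410 and 5075 CPM and between 4610 and 5321 CPM. Endothelial markers lay between 162 and 191 CPM and between 170.3 and 189.8 CPM. Nerve and glia markers were at 80.3 to 97.9 CPM and 87.5 to 95.9 CPM. Which cells the *Tubb3* and *Tubb2a* RNA came from was not tested. Markers of ciliated cells were at 47.6 to 112.5 CPM and 49.1 to 71.2 CPM. On the list of ciliated cells, wild type mice A (102 CPM) and B (112.5 CPM) were the highest, as on the pachytene list. Negative log2 fold changes were found in 7 of 12 Sertoli, 0 of 9 macrophage, 2 of 7 Leydig and 1 of 10 peritubular and stromal genes. They were found in 1 of 7 endothelial genes and, among genes that passed the filter, 3 of 7 nerve and glia and 4 of 5 ciliated cell genes. Of all genes tested, 50.3% were below 0. The part of these levels in the *Tuba3* result was not tested. *Tra2b-cPEko* mouse C had 131 CPM of 6 epididymal markers, where no other mouse had more than 0.66 CPM. Its *Tuba3b* level of 213 CPM was within the range of the other *Tra2b-cPEko* mice, and without it the log2 fold change of *Tuba3b* was again -0.38.

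Of 10 further tubulin genes, 8 passed the filter, and 0 were called by edgeR or DESeq2, with *Tubg2* alone at an unadjusted edgeR p under 0.05. *Tubg2*, a gamma tubulin, had 2.65 ± 0.357 CPM in wild type and 2.08 ± 0.402 CPM in the *Tra2b-cPEko* testes (log2 fold change -0.35, edgeR adjusted p = 0.317), and *Tubg1*, which seeds microtubules, 50.3 ± 1.81 and 49.8 ± 1.60 CPM (-0.01, adjusted p = 0.925). *Tube1* and *Tubd1*, the epsilon and delta tubulins of centrioles, had log2 fold changes of -0.14 and 0.11. *Tuba4a*, *Tuba8*, *Tubb2b* and *Tubb4a* lay between -0.01 and 0.19, and the groups overlapped in all 8. *Tubal3* (0 to 2 reads per library) and *Tubb1*, the beta tubulin of platelets (3 to 11 reads), were under the filter.

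The wider tubulin system was read through lists of genes, and no gene of these lists was called by edgeR or DESeq2. Of 22 folding factors, the chaperones that fold new tubulin and pair alpha with beta, 19 had a negative log2 fold change, with a median of -0.08, beside 50.3% of all genes below 0 and a median of -0.00. The lowest p-values were those of *Cct8* (333 ± 15.1 against 309 ± 4.49 CPM, -0.11, edgeR adjusted p = 0.265) and *Tcp1* (371 ± 27.3 against 338 ± 11.9 CPM, -0.13, adjusted p = 0.269), both subunits of the chaperonin that folds tubulin. Of this list 5 genes had an unadjusted p under 0.05, all lower, beside 7.07% of all genes that were lower at such a p and 8.22% that were higher.

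The 12 genes of tubulin mRNA autoregulation, *Ttc5*, *Scaper* and the CCR4-NOT deadenylase, had a median of -0.03, with 0 called and 0 at an unadjusted p under 0.05. *Ttc5* itself had a log2 fold change of 0.01 (edgeR SE 0.05). The smallest p-values were those of *Cnot10* (-0.08, adjusted p = 0.385) and *Cnot9* (-0.06, adjusted p = 0.518). Among the 25 tested enzymes that modify tubulin, 14 were below 0 and 11 above, with a median of -0.01, and 4 had an unadjusted p under 0.05, 3 of them lower, a share close to the 15.3% of all genes. *Agbl5*, which trims the tails of tubulin, had 70.05 ± 7.21 and 60.8 ± 1.76 CPM (-0.20, adjusted p = 0.191), and *Agbl4*, of the same family, 1.30 ± 0.232 and 0.806 ± 0.229 CPM (-0.67, adjusted p = 0.197), both without overlap. The groups did not overlap in 3 of the 25 enzymes, all lower, against 8.54% of all genes tested. *Agbl4* had only 17 to 72 reads per library, and without *Tra2b-cPEko* mouse D its log2 fold change was -0.49.

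Lists of proteins that act on microtubules had medians of either sign, to be read beside the 50.3% of all genes below 0 and the 15.3% with an unadjusted p under 0.05 (7.07% lower, 8.22% higher). Of 14 tested genes that sever or destabilise microtubules, 13 were below 0 (median -0.07) and 2, both lower, had such a p, *Katnbl1* (-0.13, edgeR adjusted p = 0.258) and *Kif2a* (-0.09, adjusted p = 0.307). Of 18 nucleation genes 14 were below 0 (median -0.06), and 3 lower and 1 higher had such a p, with *Haus8* at -0.19 (adjusted p = 0.226) and the centrosome gene *Pcnt* at 0.15 (adjusted p = 0.241). Of 20 genes that stabilise microtubules or bind their ends, 15 were above 0 (median 0.07), and 4, all higher, had such a p, with *Map6* at 0.24 (adjusted p = 0.159) and *Map7* at 0.16 (adjusted p = 0.167), both without overlap. The groups did not overlap in 3 genes of this list, all higher, against 8.54% of all genes tested. No difference between lists was tested. Counts over whole genes do not show splicing. The paper found by RT-PCR that an exon of *Map7d2*, a gene of the last list, was included more in P12 *Tra2b-cPEko* testes.

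Among 12274 genes outside the tubulins with a mean of at least 5 CPM, those whose log2 CPM followed *Tuba3b* most closely over the 8 mice were *Emg1* (Pearson r = 0.979), *Rab1b* (0.975), *Tada1* (0.971), *Strada* (0.967) and *Tmem199* (0.964). Those closest to *Tuba3a* were *Amdhd2* (0.982), *Nprl2* (0.980), *Park7* (0.974), *Rab1b* (0.972) and *Ndufa11* (0.970). *Rab1b* was in both sets, and *Tuba3a* and *Tuba3b* had r = 0.935 with each other. These are descriptions over 8 points that share their libraries and the genotype difference.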

How the data were processed

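Whole-testis RNA of 8 mice was sequenced after stranded mRNA library preparation. The authors deposited raw counts per gene, 1 table per mouse, without normalization. Their processing notes list HISAT2 2.2.1, SAMtools 1.7.1 and HTSeq 2.0.2 with GRCm39, while the methods name Salmon for quantification; the 5 summary lines of each table are of the kind htseq-count writes and were left out. The strand setting is not given in the sources used here. Reads on genes numbered 41998195 to 59101569 in wild type and 36757386 to 49992767 in *Tra2b-cPEko* libraries. No library was a copy of another of its genotype: the chi-square over its degrees of freedom was 6.24 or more for every such pair. Pairs across the genotypes were not compared in this way.

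Counts were fitted in R 4.3.3 with edgeR 4.0.16 (filterByExpr with least count 10 and least total 15, TMM factors, robust quasi-likelihood F-test, genotype only). Calls are Benjamini-Hochberg adjusted p under 0.05 over all genes tested, and SE is the fold change over the square root of F. CPM use TMM library sizes. DESeq2 1.42.0, RLE and upper-quartile factors, no filter, the replicate letter as a block, a threshold of 0.1 and leaving out each of the 8 mice were alternatives. The paper's own comparison of these mice used DESeq2, on counts that its methods credit to Salmon. The fit was checked on simulated counts with known changes and a set spread, which was not taken from these mice. Sequences and positions come from GENCODE vM39, in which all 10 members were found by symbol, and identities from Biopython 1.88 alignments. Plots were drawn with matplotlib 3.10.9.

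Members, pathway lists and marker lists were chosen with earlier results of these data known. The genes named are the members, the other tubulins and, per pathway list, the called genes or the 2 with the smallest p. The 5 genes most like *Tuba3a* and *Tuba3b* are also named. *Sohlh1* and *Ttc5* were named after their values were seen, and *Map7d2* for the exon reported in the paper.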

Additional observations from a re-analysis of the deposited data

Results flagged for a closer look

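The members, the other tubulins, the genes named from the lists, *Tra2b*, *Tra2a*, the summed levels and the marker lists gave 100 groups of 4 values, and in 3 of them 1 mouse stood far from the others, where chance gives about 1 in 20 groups, or 5 here. None of the 3 was a tubulin. The groups share mice and genes and are not independent, and their number does not bear on how far any 1 value stood apart. The summed epididymal markers were at 131 CPM in *Tra2b-cPEko* mouse C and at 0.0817 to 0.662 CPM in the other *Tra2b-cPEko* mice. *Agbl4* was at 0.463 CPM in *Tra2b-cPEko* mouse D and at 0.899 to 0.942 CPM in the others. *Map7* was at 93.1 CPM in wild type mouse A and at 101 to 102 CPM in the other wild type mice.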

How the results depend on the processing

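Of 19104 genes tested, edgeR with TMM factors called 30 (156 at a threshold of 0.1) and with upper-quartile factors 58. DESeq2 called 507 of the 18149 genes to which it gave an adjusted p, edgeR with no low-count filter called 123 of 31426, and the fits with 1 mouse left out, of 19265 to 19516 genes, called 3 to 84. The share of calls that were higher was 83.3% with TMM factors, 59.4% with DESeq2, 91.4% with upper-quartile factors and 73.2% with no filter. Of the members, 1 was called by edgeR, 2 by DESeq2, and 0 to 1 with 1 mouse left out. *Tuba3b* was called in 7 of 13 alternatives and the summed *Tuba3* pair in 3: DESeq2 (-0.27, adjusted p = 0.00247), no filter (-0.27, adjusted p = 0.0254) and without wild type mouse C, in a range of -0.30 to -0.20 over the fits with 1 mouse left out.

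Signs turned for genes that were not called. With no filter *Tubb5* was at -0.0011, and with upper-quartile factors *Tubb4a* was at 0.013 and *Tubg1* at 0.0058. With 1 mouse left out, *Tuba1c* ranged from -0.029 to 0.051, *Tubb5* from -0.055 to 0.039, *Tubb4b* from -0.0038 to 0.070, *Tuba8* from -0.0019 to 0.38, *Tubb2b* from -0.11 to 0.20, *Tubb4a* from -0.098 to 0.049 and *Tubg1* from -0.036 to 0.0098. The cause was not tested.

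Per kilobase of windows found in no other gene in place of the transcript length, wild type levels moved to 300.4 CPM for *Tuba3a*, 190.0 for *Tuba3b*, 686 for *Tuba1a*, 128 for *Tuba1b*, 80.0 for *Tuba1c*, 615 for *Tubb4b* and 7.79 for *Tubb2a*, by construction of the shorter length.

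Mice of different genotype share replicate letters, but deviations from the genotype means correlated only from -0.14 to 0.12 between mice of 1 letter, and 2 of 8 mice were closest to their own letter, so the letters were not taken to pair the mice. With the replicate block 67 genes were called (77.6% higher), *Tuba3b* among them (-0.37, adjusted p = 0.0452), and the summed pair was not (adjusted p = 0.0829).

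What size of difference 4 mice a genotype can show at the spread of these mice was not measured here.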
